A study of Mus musculus with 28 samples.

Results

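A group of 10 genes of the heat shock response was examined in cultured mouse lymphoma cells. They are Hsf1, Hspa8, Hsp90aa1, Hsp90ab1, Hsph1, Hspb1, Dnajb1 and Bag3 of the cytosol and nucleus, and Hspd1 and Hspe1 of mitochondria. They were taken by symbol, and 8 had a probe set among the 18193 genes measured. Hsf1 and Hsp90ab1 are not analysed here. Each gene is represented by its brightest probe set over the 28 arrays, and its other probe sets served as a check.

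Each of 14 lymphomas gave an ADR culture, kept for 5 days in 0.05 µg/ml Adriamycin (doxorubicin, a topoisomerase poison that breaks DNA), and an untreated culture, which made 28 arrays. All cultures were primary B-cell lymphoma cells from lymph nodes of C57BL/6 mice carrying the Emu-myc transgene, in which the immunoglobulin heavy chain enhancer drives Myc in B cells. All had also been given Bcl2, an inhibitor of apoptosis, by a puromycin-selected retrovirus, so the untreated cultures carry Myc and Bcl2 as well. All grew on NIH 3T3 fibroblasts that had received 20 Gy of gamma rays, and the labels name no step that parts these feeder cells from the lymphoma cells before RNA was taken. The labels describe 11 lymphomas as samples of an earlier series, and 3 (5043, 9583 and 9584) without this remark. Whether each lymphoma came from a separate mouse is not stated, so p-values measure the spread between lymphomas.

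Heat shock proteins are chaperones that bind unfolded proteins and help them to fold. When unfolded proteins accumulate, the transcription factor HSF1 is released from its chaperone partners, forms trimers and binds heat shock elements, which are inverted repeats of GAA and TTC, in the promoters of chaperone genes. In the cytosol the HSP70 proteins work in cycles with J-domain proteins, which deliver clients, and with nucleotide exchange factors, which release them, and HSP90 then finishes the folding of kinases and receptors. In mitochondria imported proteins fold inside a barrel of HSP60, encoded by Hspd1, under a lid of HSP10, encoded by Hspe1. Cells with high Myc make much protein, which adds to the load on their chaperones.

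The promoters are shown because HSF1 acts through them and because Hspd1 and Hspe1 lie head to head. RefSeq windows of the build GRCm38.p6, from 250 bases before to 50 after an annotated start, were at hand for 6 of the 8 genes measured. They were searched on both strands for GAANNTTC and TTCNNGAA, a head-to-head and a tail-to-tail pair of element units, each of which reads the same on either strand. Runs of units overlap, so that 3 units hold 2 such pairs. A pair was found in 15.1% of all 32851 windows and in 17.0% of 27025 genes, and 5 of the 6 genes had one (Hspd1, Hspe1, Hspb1, Hsph1 and Bag3). A run of 3 units was found in 0.66% of genes, and in 3 of the 6 (Hspd1, Hspe1 and Hsph1). The Hspd1 and Hspe1 matches are the same site read on opposite strands, so these counts include it for both genes. A run of 4 units was found in 8 genes, or 0.0296%. It stood in the windows of Hspe1 and of 1 Hspd1 start, which are the same DNA over 285 bases. In the Hspe1 window, chr1:55087898-55088197 on the plus strand, the run begins at -89, where -1 is the base before the start. In the Hspd1 window, chr1:55087883-55088182 on the minus strand, it begins at -144. The Bag3 window, chr7:128523333-128523632 on the plus strand, holds a single pair at +43. Capitals mark the matches in the sequences that follow, and a match is a description of the letters, not a measured binding site.

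Hspe1 window: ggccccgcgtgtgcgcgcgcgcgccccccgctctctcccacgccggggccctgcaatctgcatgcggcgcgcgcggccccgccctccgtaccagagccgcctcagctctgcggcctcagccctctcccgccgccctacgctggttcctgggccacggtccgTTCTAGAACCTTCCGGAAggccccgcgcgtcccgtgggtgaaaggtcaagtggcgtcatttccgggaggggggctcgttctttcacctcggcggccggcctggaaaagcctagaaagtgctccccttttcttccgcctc

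Bag3 window: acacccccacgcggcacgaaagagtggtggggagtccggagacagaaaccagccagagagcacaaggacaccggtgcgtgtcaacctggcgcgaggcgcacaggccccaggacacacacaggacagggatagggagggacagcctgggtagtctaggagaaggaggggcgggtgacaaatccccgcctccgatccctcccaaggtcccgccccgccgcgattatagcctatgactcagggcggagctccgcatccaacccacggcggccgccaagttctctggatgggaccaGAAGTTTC

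Hspd1 run, read on its own strand: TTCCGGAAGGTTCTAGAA

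Hsph1 run, the longest in its windows: TTCTGGAAAGTTC

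Hspb1 pairs, beginning at -117 and -97: GAAGTTTC and GAACCTTC

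The Dnajb1 windows held no match to these letters, which says nothing of HSF1 there.

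Before the chaperones, the cultures were checked for treatment and cell makeup. Cdkn1a, the p53 target that encodes the cell cycle inhibitor p21, was higher after ADR in 14 of 14 lymphomas by 1.11 ± 0.19 (SE) on the log2 scale (limma, paired by lymphoma, adjusted p = 3.5e-04), and all 14 measured G2/M genes fell, with a median change of -2.09. The B-cell receptor gene Cd79a averaged 10.2 in ADR cultures and 10.9 in untreated cultures, so this defining B-cell marker was present in both, and 5 of 9 B-cell markers fell. Fibroblast markers rose in 23 of 24 cases. Their mean level ran from 5.04 to 9.40 over ADR cultures and from 4.68 to 5.61 over untreated cultures, where 19 of the 24 averaged under 6, near the low end of the scale. Macrophage markers rose in 10 of 14 cases, with mean levels of 6.31 to 9.75 in ADR cultures and 5.22 to 8.68 in untreated cultures, and none of 6 T-cell markers was called in this limma fit. The ADR array of lymphoma 1570 stood apart in its 3′ minus 5′ signal of Gapdh, at 0.92 where the next highest was 0.38. In such bulk cultures fewer cells of a type and less RNA per cell cannot be told apart.

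Of the 8 heat shock genes, Bag3 rose after ADR and no other gene passed the test in either direction. Over all 18193 genes, 15.3% were called higher and 13.4% lower at an adjusted p under 0.05, so 1 of 8 higher and 0 of 8 lower is no more than this background. The median of the 8 mean changes was -0.08, against -0.00107 over all genes. Every value given here as a level is a log2 expression value of 1 probe set, and every change subtracts a lymphoma's untreated value from its ADR value. Levels are not compared between genes, since each probe set has its own brightness.

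**Figure D1:**
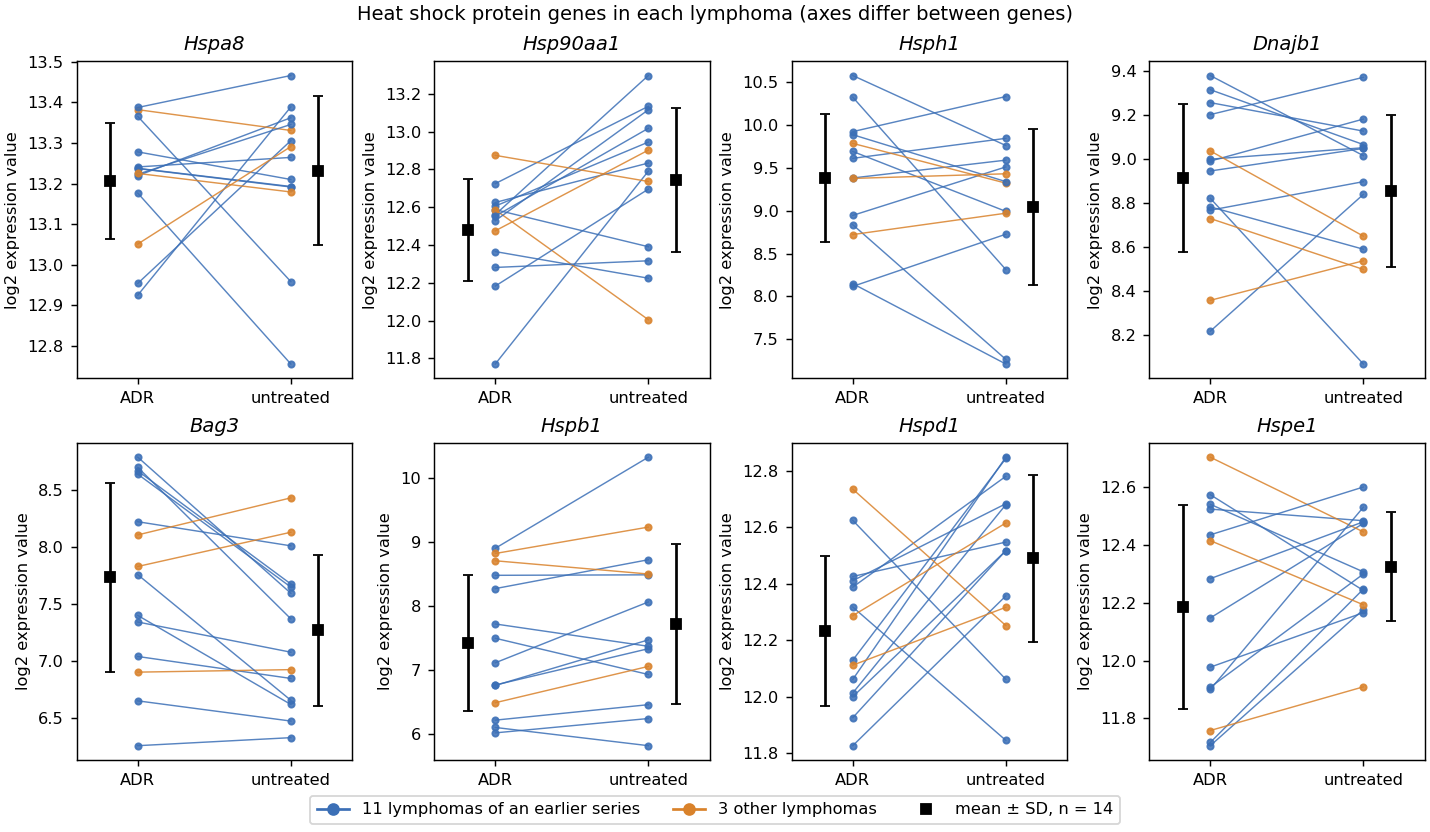
Log2 expression values of the 8 heat shock genes in ADR cultures (left of each panel) and untreated cultures (right), with a line for each of the 14 lymphomas and the mean ± SD beside them; axes differ between genes. The groups overlap for every gene, and Bag3, at 6.26 to 8.79 in ADR cultures and 6.33 to 8.43 in untreated cultures, is the gene that passed the test.

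Bag3 encodes a nucleotide exchange factor of HSP70 that also hands clients to autophagy. Its level was 6.26, 7.79 and 8.79 (lowest, median and highest) in ADR cultures and 6.33, 7.22 and 8.43 in untreated cultures. The ranges overlap, but 4 ADR arrays lay above every untreated array while 1, of lymphoma 1570, lay below. In 10 of 14 lymphomas Bag3 was higher after ADR. The mean change was 0.47 ± 0.14 (SE, 95% interval 0.16 to 0.77), a fold of 1.38, with an adjusted p of 0.0225 in the paired limma fit over all genes. The change was 1.33 in lymphoma 5560, 1.19 in 3594, 1.10 in 6054, 0.99 in 3769 and 0.99 in 403, while the lowest was -0.33 in 9583. These 5 lymphomas carry most of the mean, and the other 9 ran from -0.33 to 0.78. A fit without the block of lymphoma pairs gave the same mean change with an adjusted p of 0.263, and a fit with lymphoma as a random block gave 0.104. Without lymphomas 403 and 5560, where fibroblast markers rose most, the change was 0.35 (adjusted p = 0.0910). Without lymphoma 1570, whose ADR array stood apart, the change was 0.51 (adjusted p = 0.0189).

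Bag3 was also compared between the 2 sets of lymphomas. It was higher after ADR in 10 of the 11 lymphomas of the earlier series, with a mean change of 0.65, and in 0 of the 3 others, with a mean change of -0.22. The difference was 0.87 ± 0.28 (SE) in limma on the 14 changes, with an unadjusted p of 0.00795 and an adjusted p of 0.864 over all genes, so it did not pass. That test called 0.0055% of genes, which is 1 of 18193, and 999 genes, or 5.49%, had an unadjusted p under 0.05. For the other 7 heat shock genes the same difference had adjusted p-values from 0.864 to 0.990. What sets the 3 other lymphomas apart is not stated in the labels, and its part in the Bag3 change was not tested.

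Hspa8 encodes HSC70, the constitutive cytosolic HSP70. Its level was 12.9, 13.2 and 13.4 in ADR cultures and 12.8, 13.3 and 13.5 in untreated cultures, lowest, median and highest. The ranges lie almost on each other, and 7 lymphomas were higher and 7 lower after ADR. The mean change was -0.02 ± 0.07 (SE), with a 95% interval of -0.17 to 0.12 and an adjusted p of 0.841 (limma, paired). The interval corresponds to folds between 0.89 and 1.09. Individual lymphomas moved more than this mean, from -0.46 in 2581 to 0.42 in 2949. The next brightest probe sets gave -0.01 and -0.00017, and a dim one 0.18, and none passed the test.

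Hsph1 encodes HSP110, an exchange factor that HSP70 uses to pull proteins out of aggregates. Its level was 8.12, 9.50 and 10.6 in ADR cultures and 7.21, 9.33 and 10.3 in untreated cultures. The mean change was 0.34 ± 0.20 (SE, adjusted p = 0.238 in limma), with 7 lymphomas higher and 7 lower. The lymphomas moved in opposite directions by large amounts. The change was 2.01 in 2949, 1.57 in 5560 and 0.94 in 3769, against -0.61 in 3594 and -0.57 in 2581. The spread of the 14 changes, an SD of 0.81, was wider than that of 92.1% of all genes. The second Hsph1 probe set gave 0.27 with 6 lymphomas higher. Hspa8 and Hsph1, which act together, differed in change by -0.36 ± 0.18 (Hspa8 minus Hsph1, SE, exact sign-flip test over 16384 flips, two-sided p = 0.0626, adjusted p = 0.125 over the 2 pairs compared, n = 14).

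Dnajb1 encodes HSP40, the J-domain protein that brings clients to HSP70. Its level was 8.22, 8.97 and 9.38 in ADR cultures and 8.07, 8.96 and 9.37 in untreated cultures. The mean change was 0.06 ± 0.09 (SE, adjusted p = 0.670 in limma), with 7 lymphomas higher and 7 lower, from -0.62 in 2581 to 0.75 in 1467. The second probe set gave -0.09, so the direction of this small mean was not settled.

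Hsp90aa1 encodes the inducible cytosolic HSP90. Its level was 11.8, 12.6 and 12.9 in ADR cultures and 12.0, 12.8 and 13.3 in untreated cultures. In 10 of 14 lymphomas it was lower after ADR, and the mean change was -0.26 ± 0.11 (SE, 95% interval -0.49 to -0.03). The adjusted p of 0.0837 in limma did not pass. The change ran from -1.02 in 1570, whose ADR array stood apart, to 0.58 in 5043. Without 1570 the mean was -0.20 (adjusted p = 0.159), and without 5043 it was -0.33 (adjusted p = 0.0205). In the 11 lymphomas of the earlier series the mean was -0.36 (adjusted p = 0.0240), while in the other 3 it was 0.10. Other probe sets of the gene disagreed in size. A bright one gave -0.03 with 5 lymphomas higher, and another gave -0.40 with 3 higher (adjusted p = 0.0426 over all probe sets). A further 2 were dim, with means of 4.10 and 3.31.

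Hspb1 encodes HSP25 in mice, a small heat shock protein that holds unfolded clients without using ATP. Its level was 6.02, 7.30 and 8.90 in ADR cultures and 5.82, 7.42 and 10.3 in untreated cultures. The untreated cultures thus spanned 4.50 log2 units, from lymphoma 6054 to lymphoma 3769, which was also the highest after ADR. In 10 of 14 lymphomas the level was lower after ADR, and the mean change was -0.30 ± 0.14 (SE, adjusted p = 0.124 in limma). The change ran from -1.42 in 3769 to 0.57 in 403. The second probe set gave -0.41 (adjusted p = 0.0898), with 5 lymphomas higher.

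Hspd1, the mitochondrial HSP60, had levels of 11.8, 12.2 and 12.7 in ADR cultures and 11.8, 12.5 and 12.8 in untreated cultures. It was lower after ADR in 11 of 14 lymphomas, and the mean change was -0.26 ± 0.12 (SE, 95% interval -0.50 to -0.01, adjusted p = 0.112 in limma). With lymphoma as a random block the same change had an adjusted p of 0.0438. It also passed without 1467 (-0.31, adjusted p = 0.0450), without 2949 (-0.32, 0.0345) or without 5043 (-0.31, 0.0458). Those are the 3 lymphomas in which Hspd1 was higher after ADR, by 0.47, 0.56 and 0.48.

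Hspe1, the HSP10 lid, had levels of 11.7, 12.2 and 12.7 in ADR cultures and 11.9, 12.3 and 12.6 in untreated cultures. It was lower in 9 of 14 lymphomas, and 5 ADR arrays lay below every untreated array while 1 lay above. The mean change was -0.14 ± 0.08 (SE, adjusted p = 0.241 in limma), and the second probe set gave -0.17. ADR cultures were more spread than untreated ones, with SDs of 0.35 and 0.19. The changes of Hspd1 and Hspe1 differed by -0.12 ± 0.07 (Hspd1 minus Hspe1, SE, exact sign-flip test, two-sided p = 0.130, adjusted p = 0.130, n = 14).

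**Figure D2:**
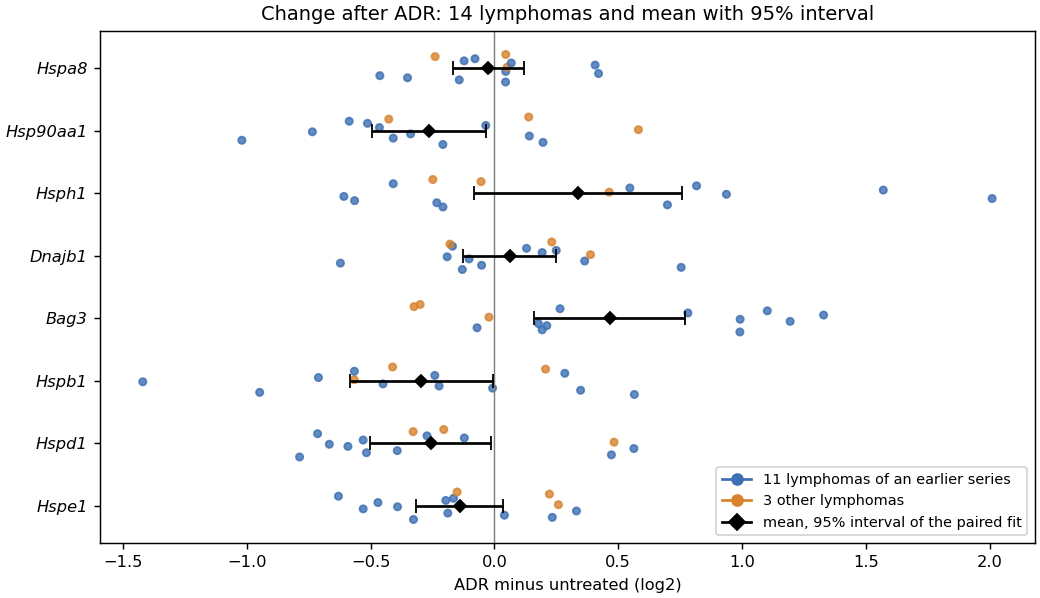
Change of each heat shock gene after ADR (horizontal axis, ADR minus untreated, log2), with a point for each of 14 lymphomas, coloured by whether the labels place it in an earlier series, and the mean with its 95% interval from the paired fit. The interval of Bag3, 0.16 to 0.77, lies above 0, with the 3 other lymphomas at or below 0, while Hsph1 has the widest spread, from -0.61 to 2.01. The intervals are not adjusted for the number of genes. Those of Hsp90aa1 (-0.49 to -0.03), Hspb1 (-0.59 to -0.006) and Hspd1 (-0.50 to -0.01) lie below 0, although these genes did not pass the test.

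The genes were then compared over the 14 lymphomas, since a mean near 0 can hold lymphomas that move in opposite directions. Of 28 pairs of changes, 4 passed by Pearson's r with 100000 permutations and Benjamini-Hochberg adjustment. Among these 28 pairs the 2 partners of the mitochondrial chaperonin moved together most closely, with r = 0.82 (permutation p = 3.2e-04, adjusted p = 0.0090) and Spearman's rho = 0.83 (permutation p = 4.4e-04, adjusted p = 0.0123). Without 2949 and 5043, the lymphomas farthest from the median, r was 0.70, and within the 11 lymphomas of the earlier series it was 0.86. Both genes had higher values after ADR in 1467, 2949 and 5043, where the Hspe1 change was 0.23, 0.33 and 0.26. Each followed a gene outside the group more closely, at r = 0.98 for Hspd1 with Ppp1r8 and 0.95 for Hspe1 with Mak16. An r of 0.82 is thus not particular to these partners, and the share over all gene pairs was not computed. Hsp90aa1 moved with Hspd1 at r = 0.78 (p = 8.2e-04 by permutation, 0.0105 adjusted), where rho was 0.68 (0.0464 adjusted). Dnajb1 moved with Hspd1 at r = 0.75 (p = 0.00112 by permutation, 0.0105 adjusted), where rho was 0.75 (0.0333 adjusted). Within the 11 lymphomas these were 0.73 and 0.74, and without their farthest lymphomas 0.77 and 0.84. Hspa8 and Hsph1 had r = 0.69 (adjusted permutation p = 0.0428) but rho = 0.44 (adjusted permutation p = 0.282), and without 2581 and 2949 r was 0.46, so that relation rests on those lymphomas. By rho 2 further pairs passed that did not pass by r. Bag3 and Hspe1 moved in opposite directions at rho = -0.73 (adjusted permutation p = 0.0381; r = -0.65 with adjusted p = 0.0677), and Hsp90aa1 and Dnajb1 together at rho = 0.70 (adjusted permutation p = 0.0464; r = 0.64 with adjusted p = 0.0677). Among the untreated levels none of 28 pairs passed, the lowest adjusted permutation p being 0.0807.

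Fibroblast markers moved with 3 of the genes. In 16 relations between the change of a gene and the mean change of the fibroblast or G2/M list, Hspe1 had r = -0.74 with the fibroblast change (permutation p = 0.00280, adjusted p = 0.0248, rho = -0.84 with adjusted p = 0.00528). Hspd1 had r = -0.73 (permutation p = 0.00310, adjusted p = 0.0248, rho = -0.78 with adjusted p = 0.0126), and Bag3 had r = 0.71 (permutation p = 0.00472, adjusted p = 0.0252, rho = 0.74 with adjusted p = 0.0195). Without 403 and 5560 these were -0.79 for Hspe1, -0.74 for Hspd1 and 0.59 for Bag3, and within the 11 lymphomas -0.74, -0.72 and 0.69 in that order. Dnajb1 had r = -0.53 (adjusted permutation p = 0.215) and rho = -0.60 (adjusted permutation p = 0.102), and r was -0.76 without 403 and 5560. Relations as strong were not particular to Bag3, Hspd1 and Hspe1. In the wider chaperone lists r with the fibroblast change was -0.88 for Dnajc7, -0.81 for Chordc1 and 0.75 for Hspa1b. Other genes of those lists had weaker relations, such as 0.05 for Pam16. These values carry no test, and the share over all genes was not computed. None of the 8 relations with the G2/M change passed, the lowest adjusted permutation p being 0.249.

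The fibroblast change was -0.13 in 1467, 0.51 in 5043 and 0.58 in 2949, the 3 lowest values, and 4.41 in 403 and 4.03 in 5560, the 2 highest. In a fit with the fibroblast change as a covariate, the value at no fibroblast change was -0.10 ± 0.18 (SE) for Bag3 (adjusted p = 0.817). It was 0.20 ± 0.15 for Hspd1 (adjusted p = 0.458) and 0.18 ± 0.11 for Hspe1 (adjusted p = 0.356, limma). All 3 changed sign and none passed, so their direction at no fibroblast change was not settled. That point lies near the edge of the 14 values, between -0.13 in 1467 and 0.51 in 5043. In the same fit Hsp90aa1 had -0.05 (adjusted p = 0.916), against its mean of -0.26, Dnajb1 had 0.31, Hsph1 0.45, Hspb1 -0.38 and Hspa8 -0.10, and none of these passed either. That fit called 1030 genes higher and 911 lower over all genes, against 2790 and 2435 without the covariate, so fewer calls in it do not by themselves show smaller changes. The change of Myc, which averaged -0.71 ± 0.18 (SE, adjusted p = 0.0073 in limma, higher in 2 of 14 lymphomas), was set against the 8 genes after the data had been seen. It moved with Hspe1 at r = 0.79 (permutation p = 5.7e-04, adjusted p = 0.00456 over 8 relations; rho = 0.88, adjusted p = 4.8e-04). With Hspd1 it moved at r = 0.63 (p = 0.0151 by permutation, 0.0402 adjusted), where rho was 0.73 (0.0113 adjusted). With Bag3 it moved at r = -0.74 (p = 0.00159 by permutation, 0.00636 adjusted), where rho was -0.82 (0.00312 adjusted). Within the 11 lymphomas r was 0.86, 0.73 and -0.76, and without 2949 and 5560 it was 0.79, 0.61 and -0.71, in the same order. The parts of Myc, fibroblast RNA and the 2 sets of lymphomas in these relations were not tested apart from each other. How many of all genes moved as closely with Myc was not computed.

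**Figure D3:**
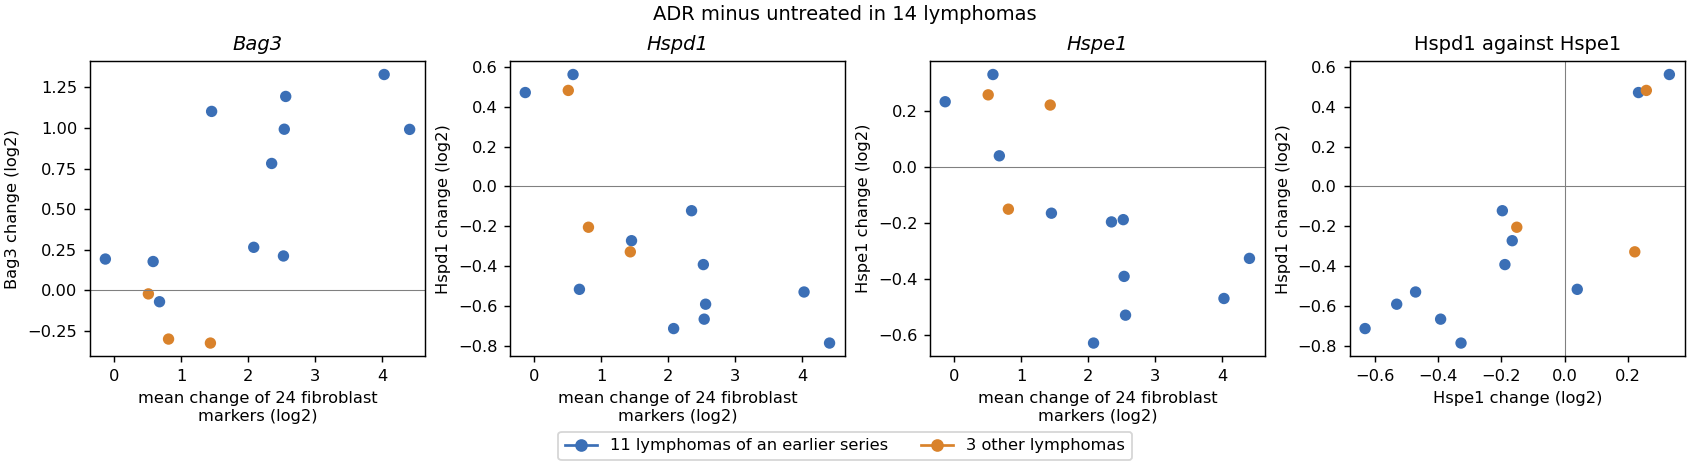
Changes after ADR (ADR minus untreated, log2) of Bag3, Hspd1 and Hspe1 against the mean change of 24 fibroblast markers, and of Hspd1 against Hspe1, with a point for each of 14 lymphomas coloured by series. Bag3 points go up along the fibroblast axis (r = 0.71), Hspd1 and Hspe1 points go down (r = -0.73 and -0.74), and the last panel follows a line (r = 0.82).

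As a description of which genes followed each heat shock gene most closely, 8813 genes with a mean of at least 6 were ranked by Pearson's r of the 14 changes. The closest was Ppp1r8 for Hspd1 (r = 0.98), Mak16 for Hspe1 (0.95), Thoc1 for Dnajb1 (0.93) and Nt5c3b for Hsp90aa1 (0.90). It was Tfip11 for Hsph1 (0.88), Mrrf for Hspb1 (0.85), Plekha1 for Bag3 (0.84) and Anapc4 for Hspa8 (0.84). These are the highest of 8813 values each over the same 14 lymphomas and carry no test.

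**Figure D4:**
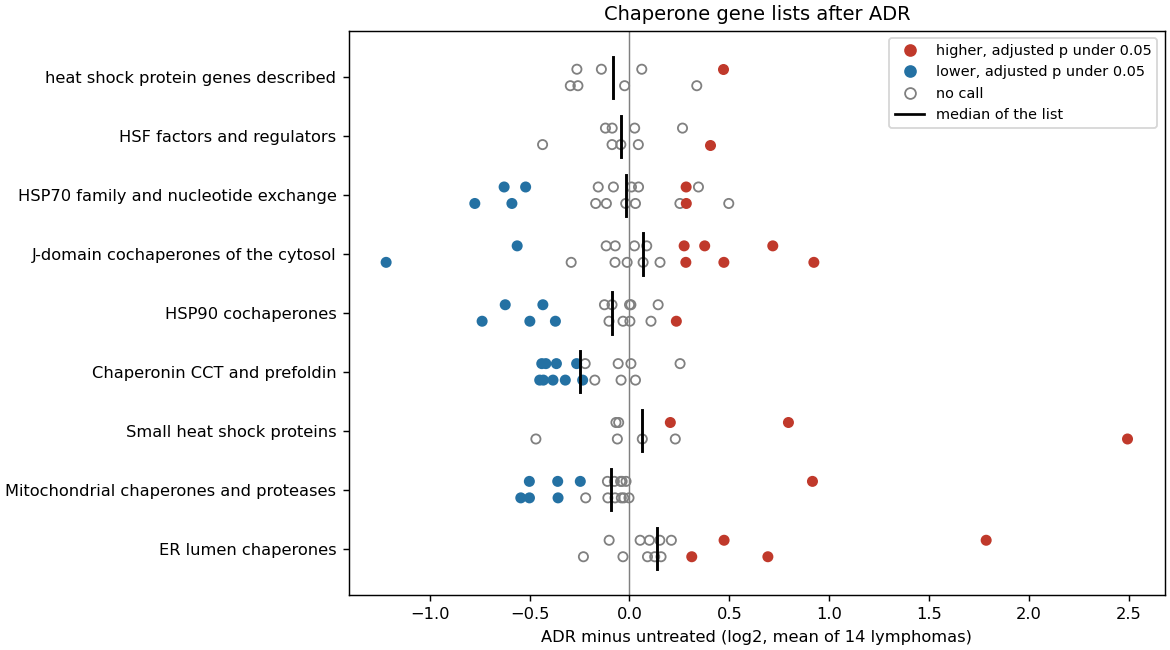
Mean change after ADR (horizontal axis, ADR minus untreated, log2, 14 lymphomas) of each gene in the 8 chaperone lists and of the 8 heat shock genes, filled where the adjusted p is under 0.05, with the median of each list as a line. The chaperonin and prefoldin list has 9 of 16 genes lower and 0 higher, and Cryab stands farthest to the right, at 2.49.

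The wider chaperone network was measured through 8 lists with 115 genes, of which 18 rose and 26 fell. Over all 18193 genes 15.3% were called higher and 13.4% lower, and the list counts below stand beside these shares. The fit without 403 and 5560 called 2457 higher and 2031 lower over all genes, and the fibroblast covariate fit 1030 and 911. Among 9 HSF factors and regulators of HSF1, Ep300, an acetyltransferase that modifies HSF1, rose by 0.40 ± 0.07 (SE, adjusted p = 4.9e-04, 14 of 14 lymphomas higher), and no other member passed. It had 0.55 at no fibroblast change (adjusted p = 0.0089). In the HSP70 and exchange factor list 2 of 17 rose and 4 fell, with a median of -0.02. Hspa14, a ribosome-bound HSP70, had -0.77 ± 0.08 (SE, adjusted p = 7.8e-06) and was lower in 14 of 14 lymphomas. Hspa2, best known from male germ cells, had -0.63, and Bag2, an inhibitor of the ubiquitin ligase CHIP, had -0.59. At no fibroblast change 0 of the 17 were higher and 3 lower, with -0.72 for Hspa14 (adjusted p = 0.0060), -0.77 for Hspa2 (adjusted p = 0.0788) and a turn to 0.12 for Bag2 (adjusted p = 0.841). Bag2 also lost its call without 403 and 5560 (-0.49, adjusted p = 0.0842). In that fit Hspa14 (-0.81, adjusted p = 2.8e-05) and Hspa2 (-0.69, adjusted p = 0.0079) kept theirs. In the list of J-domain cochaperones 6 of 17 rose and 2 fell, with a median of 0.07. Dnajc9, which is also a histone chaperone, had -1.22 ± 0.15 (SE, adjusted p = 1.9e-05, 1 of 14 higher), while Dnajb14 rose by 0.92 and Dnajb4 by 0.72. Dnajb14 was dim, with means of 4.97 in ADR cultures and 4.05 in untreated cultures. With the fibroblast covariate 2 of the 17 were higher and 2 lower. Dnajc9 then had -0.90 (adjusted p = 0.0237), while Dnajb14 had 0.51 (adjusted p = 0.392) and Dnajb4 0.21 (adjusted p = 0.489). Without 403 and 5560 6 were higher and 2 lower. Dnajc9, Dnajb14 and Dnajb4 kept their calls there (-1.20, 0.95 and 0.63, adjusted p = 1.1e-04, 0.0065 and 0.0026).

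HSP90 cochaperones were lower in 5 of 15 cases and higher in 1, with a median of -0.09. The largest changes were -0.74 for Fkbp4 and -0.62 for Fkbp5, immunophilins of steroid receptor complexes, and -0.50 for Nudc. With the fibroblast covariate 2 of the 15 were higher and 0 lower, with a median of 0.08. Over all 18193 genes that fit called 1030 higher and 911 lower. Fkbp4 then had -0.06 (adjusted p = 0.927) and Nudc -0.07 (adjusted p = 0.859), while Fkbp5 had -0.56 (adjusted p = 0.0630). Without 403 and 5560 the list had 4 lower and 1 higher. Fkbp4 had -0.62 (adjusted p = 0.0249), Nudc -0.46 (adjusted p = 0.0202) and Fkbp5 -0.66 (adjusted p = 7.6e-04) in that fit. The cytosolic chaperonin CCT, which folds actin and tubulin, and prefoldin, which feeds it, gave the most one-sided list. There 9 of 16 fell and 0 rose, with a median of -0.25. Vbp1, a prefoldin subunit, had -0.45 ± 0.07 (SE, adjusted p = 1.5e-04) and Tcp1, a CCT subunit, -0.44 ± 0.06 (SE, adjusted p = 4.5e-05), each lower in 14 of 14 lymphomas by limma, and Pfdn4 had -0.43. At no fibroblast change 1 of the 16 was lower, with a median of -0.14 and values of -0.32 for Vbp1, -0.28 for Tcp1 and -0.35 for Pfdn4 (adjusted p = 0.0924, 0.0646 and 0.0709 in that order). Without 403 and 5560 8 of the 16 were lower, where 2031 of all 18193 genes were. In the list of mitochondrial chaperones and proteases 6 of 18 fell and 1 rose, with a median of -0.09. The protease Lonp1 had -0.54 and the iron-sulfur cochaperone Hscb -0.50, while Atf5, a transcription factor of the mitochondrial unfolded protein response, rose by 0.92 ± 0.23 (SE, adjusted p = 0.0071, 12 of 14 higher). With the fibroblast covariate 4 of the 18 were lower and 0 higher. Lonp1 then had -0.93 (adjusted p = 0.0052) and Hscb -0.67 (adjusted p = 0.0077), while Atf5 had 0.83 (adjusted p = 0.237). Without 403 and 5560 Lonp1, Hscb and Atf5 all kept their calls (-0.64, -0.52 and 0.97, adjusted p = 8.3e-04, 0.0010 and 0.0067).

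Small heat shock proteins other than Hspb1 rose in 3 of 9 cases, and 8 of the 9 averaged under 6 in untreated cultures. Cryab, the alpha-B crystallin, averaged 7.01 in ADR cultures and 4.52 in untreated cultures, a change of 2.49 ± 0.49 (SE, adjusted p = 0.0012, 13 of 14 higher in limma), and Hspb8, the partner of BAG3 in selective autophagy, rose by 0.80 and Hspb2 by 0.20. At no fibroblast change 0 of the 9 were higher and 3 lower, with -0.13 for Cryab (adjusted p = 0.867), -0.66 for Hspb8 (adjusted p = 0.0456) and 0.03 for Hspb2 (adjusted p = 0.918), and without 403 and 5560 1 was higher and 1 lower. Over all 18193 genes that fit called 2457 higher and 2031 lower. The gene of this list still higher without 403 and 5560 was Cryab (1.99, adjusted p = 0.0040). Hspb8 (0.43, adjusted p = 0.104) and Hspb2 (0.17, adjusted p = 0.101) lost their calls. In the lumen of the endoplasmic reticulum 4 of 14 chaperones rose and 0 fell, with a median of 0.14. Serpinh1, the collagen chaperone HSP47, rose by 1.79. Dnajb9, a J-domain protein that restrains the sensor IRE1, rose by 0.69 ± 0.09 (SE, adjusted p = 4.2e-05, 14 of 14 higher), and Calr, a lectin chaperone, rose by 0.47. At no fibroblast change 1 of the 14 was higher. Dnajb9 then had 0.70 (adjusted p = 0.0125), Calr 0.24 (adjusted p = 0.361) and Serpinh1 -0.23 (adjusted p = 0.445). Without 403 and 5560 4 were higher, with 0.69 for Dnajb9, 0.44 for Calr and 1.30 for Serpinh1 (adjusted p = 2.4e-04, 0.0063 and 0.0011).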

How the data were processed

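The deposited values are log2 expression values of 45101 probe sets on 28 arrays, made by the authors with RMA and Partek 6.5 per the submitters' processing notes. RMA already corrects background and normalizes between arrays, and changes of genes near the low end of its scale come out too small; for arrays, precision depends on their number. Array medians ran from 4.71 to 4.80. All value columns were mapped to samples. Probe sets with 1 gene in the 2016 array annotation (34945, of which 34741 matched the RefSeq table) were used, and 932 with several genes, 9160 with none and 64 controls were left out. The brightest probe set per gene left 18193 genes.

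The paired test was limma's moderated fit (lmFit and eBayes, version 3.58.1 under R 4.3.3) having lymphoma as a block, with Benjamini-Hochberg adjustment over all genes at 0.05, after the fit had been tested on simulated data. The labels pair arrays by lymphoma. Deviations from the group means correlated at 0.27 to 0.61 within lymphomas (median 0.48), against a median of -0.08 between them, and no 2 arrays were identical. In 12 of 14 lymphomas, not in all, the ADR array correlated most with the untreated array of the same lymphoma. Promoters were searched in RefSeq windows of GRCm38.p6. Named genes are the 10 genes chosen, up to 3 called genes per list with the largest change, the gene most like each, Myc and Cdkn1a. Outside this rule, Dnajc7, Chordc1, Hspa1b and Pam16 were named as examples of relations with the fibroblast change, and Cd79a as a B-cell marker. The genes, lists and tests were chosen with earlier results of these data known. The planned 3 pairs and 20 relations became 2 and 16 because 2 of the genes were not analysed here.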

Additional observations from a re-analysis of the deposited data

How the results depend on the processing

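The 8 changes and the counts of genes called were recomputed under other choices. Bag3 kept its call in all 14 fits that left out a lymphoma (0.40 to 0.53), after centring or repeated quantile normalization, and in the 11 lymphomas of the earlier series. It lost the call with no replicate block (0.47, adjusted p = 0.263), with a random one (0.47, 0.104), without 403 and 5560 (0.35) and with the G2/M change as covariate (0.40). It reversed to -0.22 in the 3 other lymphomas and to -0.10 with the fibroblast covariate. Hspb1 kept its direction and its side of the threshold in all settings run. Hspa8 turned to 0.18 with the probe set of largest variance, also when every probe set was tested, and to 0.00093 without 1570, with -0.058 to 0.0095 over the fits without a lymphoma. Hsp90aa1 passed at -0.40 with its most variable probe set in either fit, at -0.36 in the 11 lymphomas, and without 5043, with -0.33 to -0.20 over the fits without a lymphoma, and turned to 0.10 in the 3 others. With the fibroblast covariate it shrank to -0.05 (adjusted p = 0.916). Hsph1 turned to -0.57 with the G2/M covariate and Dnajb1 to -0.092 with its second probe set. Hspd1 passed at -0.26 with the random block and in 3 fits without a lymphoma (-0.32 to -0.22 over all), and turned to 0.20 with the fibroblast covariate. Hspe1 turned to 0.11 in the 3 others and to 0.18 with the fibroblast covariate. The cause of these shifts was not tested. Genes called numbered 2790 higher and 2435 lower, against 1933 and 1723 with no replicate block, 1030 and 911 with the fibroblast covariate, 7 and 3 with the G2/M covariate, where 0 lies outside the 14 G2/M changes, and 1 and 0 in the 3 other lymphomas, where fewer samples were fitted. Precision is limited by 14 pairs and, for small heat shock proteins, by signals near background.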
